A study of Mus musculus with 3 samples.

Results

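The respiratory chain genes described here are 102 of the 13242 genes in the deposited count table of macrophages from injured mouse muscle. They were chosen by symbol and by no cut on a measured value, though with earlier results of these data known. The rule took symbols that begin with Nduf, Uqcr, Atp5, mt- or Cox followed by a subunit number of complex IV. It also took Sdha, Sdhb, Sdhc and Sdhd. Cox6a2, an isoform of heart and skeletal muscle that matches the same rule, was left out. The nuclear genome encodes 89 of them and the mitochondrial genome 13. By the complex they belong to, the nuclear genes are 36 of complex I, 4 of complex II, 8 of complex III, 17 of complex IV, 15 of complex V, and 9 assembly or accessory factors. Ndufa4 and Ndufa4l2, named after complex I, were counted with complex IV, where the Ndufa4 protein is now placed. The mitochondrial genes are 7 of complex I, 1 of complex III, 3 of complex IV and 2 of complex V.

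The cells were macrophages sorted from the quadriceps of mice 1 week after volumetric muscle loss, a surgical removal of a block of muscle. The injury was treated with urinary bladder matrix (UBM), which is decellularised tissue, with polycaprolactone (PCL), a synthetic polyester, or with saline as the control. Each condition is 1 droplet library made with a kit that counts the 3′ ends of mRNAs, so no difference below was tested, and every interval is a 95% interval of counting error that leaves out the variation between mice and libraries. No source used here gives the strain, sex or age of the mice, or how many were pooled into a library.

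The respiratory chain is the machinery of the inner mitochondrial membrane that turns electrons from nutrients into a proton gradient. Complex I takes electrons from NADH and complex II from succinate, complex III hands them to cytochrome c, complex IV passes them to oxygen, and complex V, the ATP synthase, uses the gradient to make ATP. Complex II is wholly nuclear, while the other complexes join nuclear subunits to a few hydrophobic subunits that the mitochondrion makes itself. In macrophages, inflammatory activation is known for a turn from respiration to glycolysis, and activation by interleukin-4 for the upkeep of respiration.

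In all, 2280 cells came from UBM, with 14586276 unique molecular identifiers (UMIs, each standing for 1 captured mRNA molecule). The PCL library held 1753 cells and 11006118 UMIs, and the saline library held 341 cells and 1888343 UMIs. The authors' table places every cell in 1 of 9 clusters, named F1, F2, FP1, R1, R2, R3, RP1, RP2 and RP3, without saying what the letters mean. All 8 macrophage markers looked for exceeded 10 UMIs per 1000000 (CPM) in every library. The 9 muscle fibre markers summed to 77.0 CPM in UBM, 42.5 CPM in PCL and 721 CPM in saline, of which Cox6a2, itself on that list, gave 29.1, 3.36 and 13.8 CPM in the same libraries. The neutrophil markers summed to 110 CPM in UBM, 1641 CPM in PCL and 243 CPM in saline, and the part of either list in the results was not tested. The mitochondrially encoded genes took over 10% of the UMIs in 47 UBM cells (2.06%), 18 PCL cells (1.03%) and 23 saline cells (6.74%). Among these saline cells were 11 of the 13 in cluster RP1, where the median cell had 42.7% mitochondrial UMIs and 1625 UMIs in all. Only 6 barcodes occurred in more than 1 library, and without those 12 cells no summed ratio given below left its interval.

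Nuclear respiratory factor 1 (NRF1) and ETS factors are known to bind promoters of many nuclear respiratory chain genes. A promoter in the RefSeq table on GRCm38.p6 was matched for 72 of the 89 nuclear genes, as a single window of 300 bases around an annotated start. The NRF1 motif, searched as the letters GCGCA, any base, then GCGC on either strand, was in 18 of these 72 promoters (25%), against 12% of 5276 promoters of other genes with at least 10 CPM and 4.78% of all 27025 promoters. The core motif of ETS factors, CCGGAAG on either strand, was in 16 of 72 (22.2%), against 21.4% and 9.12%, and the hypoxia motif ACGTG was in 17 of 72 (23.6%), against 28.3% and 19.7%. The motif searches were run separately, and no overlap between motifs was removed. Ratios of UBM to saline had a median log2 of 0.16 over the 17 genes that passed the minimum with the NRF1 letters and of 0.21 over the 50 without them. Of the promoters, 4 are shown because Ndufv3 and Cox7a2l had the largest differences between libraries among nuclear genes that passed the minimum, Ndufa6 carries the NRF1 letters and was low in PCL with Cox7a2l, and Atp5l was the most abundant gene of complex V. Each is read 5′ to 3′ on the gene's strand, and capitals mark the NRF1 letters in Ndufa6 and both copies of the ETS letters in Atp5l, each matched on the opposite strand. They lie at chr17:31519865-31520164 on the plus strand (Ndufv3) and, on the minus strand, at chr17:83514284-83514583 (Cox7a2l), chr15:82354242-82354541 (Ndufa6) and chr9:44920693-44920992 (Atp5l).
Ndufv3: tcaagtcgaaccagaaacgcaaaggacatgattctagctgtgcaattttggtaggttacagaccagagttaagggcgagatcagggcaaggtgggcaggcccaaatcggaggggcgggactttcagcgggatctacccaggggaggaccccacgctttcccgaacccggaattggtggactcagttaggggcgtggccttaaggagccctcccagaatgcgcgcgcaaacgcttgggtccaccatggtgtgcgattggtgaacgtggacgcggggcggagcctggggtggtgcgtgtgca
Cox7a2l: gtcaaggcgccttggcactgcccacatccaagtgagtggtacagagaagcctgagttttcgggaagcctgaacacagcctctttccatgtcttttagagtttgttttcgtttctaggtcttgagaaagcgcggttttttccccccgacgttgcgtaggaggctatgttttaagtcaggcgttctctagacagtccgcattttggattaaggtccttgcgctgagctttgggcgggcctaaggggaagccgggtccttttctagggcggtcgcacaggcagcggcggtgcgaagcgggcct
Ndufa6: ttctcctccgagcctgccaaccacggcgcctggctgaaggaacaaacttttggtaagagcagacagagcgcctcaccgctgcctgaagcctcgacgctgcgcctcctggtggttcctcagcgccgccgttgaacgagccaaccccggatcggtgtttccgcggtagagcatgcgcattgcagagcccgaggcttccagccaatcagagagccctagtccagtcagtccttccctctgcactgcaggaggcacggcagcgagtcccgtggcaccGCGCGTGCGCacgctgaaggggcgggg
Atp5l: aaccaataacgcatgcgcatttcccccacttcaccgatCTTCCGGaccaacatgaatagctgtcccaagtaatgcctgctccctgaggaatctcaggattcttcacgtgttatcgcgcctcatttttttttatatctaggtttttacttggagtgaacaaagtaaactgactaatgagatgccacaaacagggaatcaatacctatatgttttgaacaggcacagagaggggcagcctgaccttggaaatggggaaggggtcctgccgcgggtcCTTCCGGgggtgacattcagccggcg
Neither set of letters is in the Ndufv3 or Cox7a2l window. The Cox7a2l window lies inside the gene, whose outermost annotated start is at chr17:83517330, and the bases around that start were not searched.

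Summed over the whole chain, the nuclear and the mitochondrial genes ran in opposite directions in UBM. The 89 nuclear genes took 2.60% of all UMIs in UBM, against 2.21% in saline, a ratio of 1.18 (1.16 to 1.19). The 13 mitochondrially encoded genes took 2.87% in UBM, against 3.93% in saline, a ratio of 0.732 (0.726 to 0.738). In PCL the nuclear sum was 2.36%, or 1.06 times that of saline (1.05 to 1.08), and the mitochondrial sum was 3.62%, or 0.921 times (0.914 to 0.928). Set directly against UBM, PCL had 0.905 times the nuclear sum (0.901 to 0.910) and 1.26 times the mitochondrial sum (1.25 to 1.26). The ratios to saline share the saline library, so they are not independent of each other.

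The direction of the mitochondrial ratio of PCL to saline depended on which cells were counted. It was 1.09 without the cells over 10% mitochondrial UMIs, 1.03 without cluster RP1, and 1.15 when clusters present with 50 or more cells on both sides were weighted equally. Within clusters, PCL cells had the higher mitochondrial share in F1 (3.13% in PCL, against 2.83% in saline), FP1 (3.66% in PCL, against 3.37% in saline) and RP3 (5.36% in PCL, against 4.35% in saline). The direction of the pooled ratio was not seen in any of the 3 clusters compared. The ratio of UBM to saline also narrowed, to 0.835 without the cells over 10% and to 0.901 without RP1. The 2 clusters with 50 or more cells on both sides gave 0.911 in FP1 (0.893 to 0.929) and 1.02 in RP3 (1.00 to 1.04). The higher mitochondrial share of PCL over UBM held in all 3 clusters compared, at 1.19 in FP1, 1.55 in RP2 and 1.21 in RP3.

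For the nuclear genes the ratio of UBM to saline was above 1 in both clusters compared, 1.13 in FP1 (1.10 to 1.15) and 1.46 in RP3 (1.41 to 1.51). The nuclear ratio of PCL to UBM was below 1 in all 3, at 0.809 in FP1, 0.872 in RP2 and 0.909 in RP3. PCL against saline was mixed, with 1.09 in F1, 0.911 in FP1 and 1.33 in RP3. In RP3 the nuclear share was 2.27% in UBM and 2.07% in PCL, against 1.56% in saline. In sums over a library, fewer cells of a type and less RNA per cell cannot be told apart, and a share of UMIs also moves with the RNA of all other genes. Scaling by the trimmed mean of M values, which sets the middle of the gene distribution equal between libraries, moved every gene's log2 ratio by 0.14 for UBM over saline, 0.02 for PCL over saline and -0.11 for PCL over UBM.

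Complex by complex, the nuclear ratio of UBM to saline was larger for complexes I, III and IV than for II and V. The ratio of UBM to saline was 1.22 for complex I (1.20 to 1.24), 1.21 for complex III (1.18 to 1.25), 1.20 for complex IV (1.18 to 1.23) and 1.10 for complex V (1.08 to 1.12). Complex II, which also works in the citric acid cycle, stood at 0.967 with an interval that includes 1 (0.901 to 1.04), and at 1.06 under the other scaling. Within complex I the 7 nuclear core subunits, among them those that carry the flavin and the iron-sulphur clusters, had 1.03 times the saline level (0.964 to 1.09), while the 29 supernumerary subunits around them had 1.24 times (1.22 to 1.26). The median log2 ratio was -0.10 over the core subunits, which turned to 0.02 under the other scaling, and 0.24 over the supernumerary ones. The nuclear parts of PCL relative to UBM were 0.879 for complex I, 1.05 for II (0.970 under the other scaling), 0.910 for III, 0.867 for IV and 0.969 for V. The mitochondrial parts went the other way in the same comparison, at 1.38 for complex I, 1.42 for III, 1.13 for IV and 1.40 for V.

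**Figure D1:**
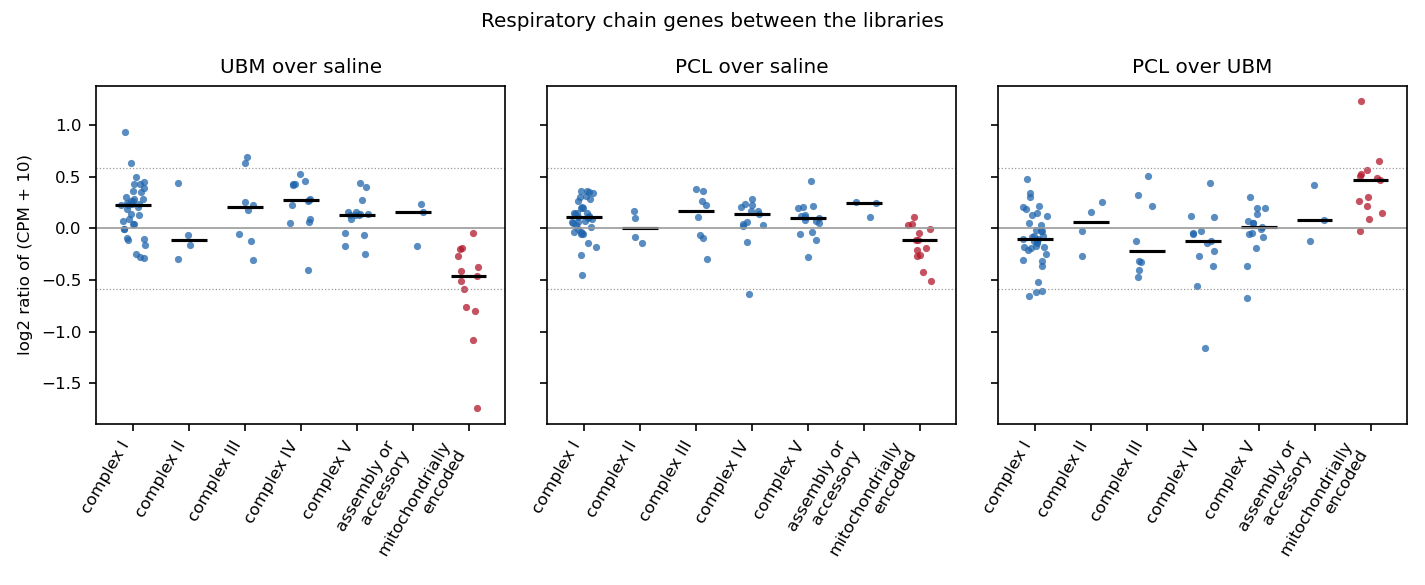
Each point is a gene with at least 10 CPM in either library of the pair, placed by its log2 ratio after adding 10 CPM to both; bars are medians, blue points are nuclear genes by complex, red points are mitochondrially encoded, and dotted lines mark 1.5-fold. For UBM over saline the medians are 0.22 for nuclear complex I and -0.46 for the mitochondrially encoded genes, and for PCL over UBM they are -0.10 and 0.47.

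Of the 89, 79 had at least 10 CPM in UBM or saline, and after adding 10 CPM to both 4 of them were at least 1.5-fold higher in UBM, against 5.36% of all 7296 genes that passed, and 0 were 1.5-fold lower, against 10.2% of all genes. Their median log2 ratio was 0.18, against -0.07 over all genes, and across these 79 genes, which share both libraries, the log2 ratio had a correlation of -0.45 with the log2 length of the transcript, against 0.03 for PCL over saline and 0.41 for PCL over UBM. In PCL against saline 0 of 79 were 1.5-fold higher (6.73% of all genes) and 1 was lower (6.78%), with a median of 0.11, against 0.04. In PCL against UBM 0 of 79 were higher (10.6%) and 5 were lower (5.44%), with a median of -0.07, against 0.11. The 10 genes under the minimum were Cox4i2, Cox6b2, Cox8b, Ndufa4l2, Atp5s, Atp5sl, Ndufaf1, Ndufaf5, Ndufaf6 and Ndufaf7.

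Among complex I genes with at least 50 CPM, Ndufv3 and Ndufa1 had the highest ratios of UBM to saline. Ndufv3, an accessory subunit of the NADH-oxidising module, had 378 CPM in UBM, 243 CPM in PCL and 193 CPM in saline, so that UBM was 1.95-fold higher than saline (1.76 to 2.18) and PCL 1.26-fold higher (1.13 to 1.41). The order was the same in the clusters compared: in FP1 Ndufv3 had 340 CPM in UBM, 263 CPM in PCL and 219 CPM in saline, and in RP3 275, 196 and 160 CPM in the same libraries. Ndufa1, a small membrane subunit needed for complex I assembly, had 356 CPM in UBM, 245 CPM in PCL and 226 CPM in saline. Most of that difference lay in R2, a cluster seen only in UBM that held 38.3% of the library's Ndufa1 UMIs, and the other UBM cells had 258 CPM.

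Ndufa6 and Ndufb11 were low in PCL. Ndufa6, an accessory subunit of the matrix arm, had 221 CPM in PCL, 353 CPM in UBM and 306 CPM in saline, 0.624 times UBM (0.594 to 0.655) and 0.722 times saline (0.659 to 0.792). Ndufb11, of the membrane arm, had 165 CPM in PCL, 256 CPM in UBM and 199 CPM in saline. The core subunit Ndufs8, which holds iron-sulphur clusters, ran opposite, with 118 CPM in PCL, 82.1 CPM in UBM and 102 CPM in saline. Its ratio to saline was 0.808 in UBM (0.693 to 0.946), and PCL was 1.44-fold above UBM (1.33 to 1.56). Ndufs4, an accessory subunit of the NADH-oxidising module, had 93.3 CPM in PCL, 74.0 CPM in UBM and 83.7 CPM in saline. In complex II, Sdha, the flavoprotein that oxidises succinate, had 77.6 CPM in UBM, against 97.4 CPM in saline, while Sdhc, a membrane anchor, had 104 CPM in UBM, against 74.1 CPM in saline.

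Complex III held genes that differed in both directions. Uqcr11 and Uqcrq, small subunits around the complex, had 554 and 574 CPM in UBM, 441 and 431 CPM in PCL, and 340 and 367 CPM in saline. Relative to saline, UBM was 1.63-fold higher for Uqcr11 and 1.56-fold higher for Uqcrq (1.45 to 1.69), and the Uqcr11 levels of UBM (542 to 566 CPM) and saline (314 to 367 CPM) did not overlap. Uqcrb, the ubiquinone-binding protein of the complex, had 662 CPM in PCL, 463 CPM in UBM and 506 CPM in saline, and PCL was above UBM in FP1 (699 against 510 CPM), RP2 (544 against 446 CPM) and RP3 (539 against 468 CPM). Uqcrh, the hinge protein that contacts cytochrome c, had 465 CPM in PCL, 649 CPM in UBM and 572 CPM in saline. Uqcrc2, a large core protein, had 59.6 CPM in UBM, against 75.7 CPM in saline.

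Among the genes of complex IV that passed the minimum, the widest difference was in Cox7a2l. Its product, also called SCAF1, joins complexes III and IV into supercomplexes. Cox7a2l had 192 CPM in PCL (184 to 200), 440 CPM in UBM (430 to 451) and 303 CPM in saline (279 to 329). PCL was thus at 0.436 times UBM (0.415 to 0.458) and 0.632 times saline (0.576 to 0.695). PCL was lower than UBM in each of the 3 clusters compared, with 177 CPM in PCL against 320 CPM in UBM for FP1, 263 against 527 CPM for RP2, and 284 against 380 CPM for RP3. Against saline it was lower in F1 and FP1, while the ratio in RP3, 0.804, had an interval that includes 1 (0.621 to 1.05). Cox7a2 itself, the ubiquitous subunit it resembles, had ratios nearer 1, with 482 CPM in PCL, 499 CPM in UBM and 412 CPM in saline.

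**Figure D2:**
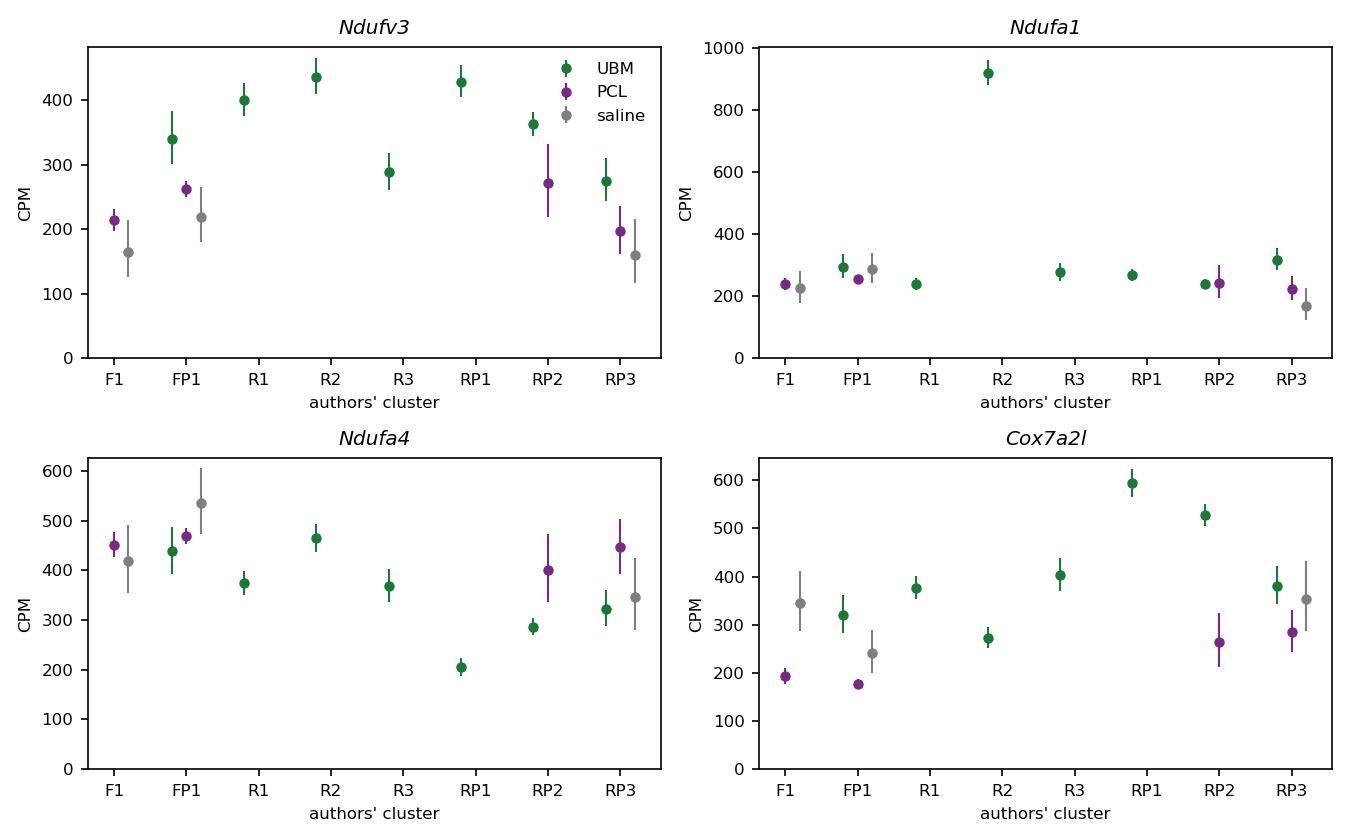
CPM of 4 genes in every cluster and library with at least 50 cells, with exact Poisson 95% intervals; colours mark the libraries. Ndufv3 is highest in UBM in each cluster with a UBM and another point, Ndufa1 reaches 919 CPM in R2 only, Ndufa4 is lowest in RP1 of UBM (205 CPM), and Cox7a2l is highest in RP1 of UBM (593 CPM) and lowest in FP1 of PCL (177 CPM).

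Ndufa4, a subunit of complex IV, and its paralogue Ndufa4l2 ran in opposite directions between UBM and saline. Ndufa4 had 331 CPM in UBM (322 to 341), 454 CPM in PCL and 442 CPM in saline (412 to 473), and UBM was at 0.750 times saline (0.697 to 0.808). Ndufa4l2, known as a target of the hypoxia factor HIF-1 that lowers complex I activity, was listed at 0 UMIs in saline, against 135 UMIs in UBM and 64 in PCL. With a floor of 3 counts for the saline library, UBM was at least 5.83-fold higher and PCL at least 3.66-fold higher. These levels are low, 9.26 CPM in UBM and 5.81 CPM in PCL. In UBM 45.9% of the Ndufa4l2 UMIs were in RP1, in 27 of 574 cells (4.70%, exact interval 3.12% to 6.77%), and in PCL 75% were in FP1, in 23 of 1036 cells.

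Among the other isoforms of complex IV, the general forms were far above the tissue-specific ones. Cox4i1, the general form of the regulatory subunit 4 and the most abundant nuclear gene of the chain, had 1278 CPM in UBM, 992 CPM in PCL and 949 CPM in saline, while Cox4i2, its form in lung and in hypoxia, had 2.67 CPM in UBM, 0.909 CPM in PCL and 0.530 CPM in saline. Cox8a had 1120 CPM in UBM, 759 CPM in PCL and 831 CPM in saline. Cox8b, the muscle form, had 9 UMIs in UBM, 5 in PCL and 17 in saline, of which 15 lay in the saline cells of R3 and 9 in a single cell. Cox7a1, another muscle form, had 31.1 CPM in UBM, 27.3 CPM in PCL and 20.7 CPM in saline. Cox6a1 had 716 CPM in UBM, 612 CPM in PCL and 517 CPM in saline, and Cox6b1 747, 684 and 619 CPM in the same libraries, against at most 5.83 CPM for the testis form Cox6b2. Since 3′ counting gives 1 count per molecule whatever its length, these levels were not divided by length.

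In complex V the genes of the membrane ring, which encode the same mature subunit c, split. Atp5g1 had 412 CPM in PCL, 333 CPM in UBM and 298 CPM in saline, with PCL 1.38-fold above saline (1.27 to 1.51). Atp5g2 had 325 CPM in PCL, 526 CPM in UBM and 396 CPM in saline, with PCL at 0.619 times UBM (0.594 to 0.644). The third, Atp5g3, had 240 CPM in PCL, 230 CPM in UBM and 208 CPM in saline. Atp5a1 and Atp5b, which form the head where ATP is made, had ratios of UBM to saline whose intervals include 1, 0.971 for Atp5a1 (0.884 to 1.07) and 0.955 for Atp5b (0.880 to 1.04). Atp5f1, of the peripheral stalk, had 253 CPM in UBM, against 302 CPM in saline.

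The mitochondrially encoded genes showed no single shift but a graded one. Their levels spanned from mt-Nd6, the only one on the light strand, with 15.1 CPM in UBM, 16.7 CPM in PCL and 15.9 CPM in saline, to mt-Atp6, the highest in PCL and saline, with 5826 CPM in UBM, 8188 CPM in PCL and 8010 CPM in saline. All 13 had lower CPM in UBM than in saline, though for mt-Nd6 the interval of the ratio includes 1 (0.949, 0.646 to 1.44) and the ratio was 1.05 under the other scaling and 1.31 without cells over 10% mitochondrial UMIs. Within clusters the direction turned for several: of the 12 genes other than mt-Nd6, 4 had ratios of UBM to saline above 1 in FP1 and 5 in RP3. In RP3 the ratio was 1.16 for mt-Co1 (1.11 to 1.21), 1.14 for mt-Atp6 (1.09 to 1.19) and 1.13 for mt-Co3 (1.08 to 1.19). At the 1.5-fold rule, 4 of 13 were lower in UBM than in saline (10.2% of all genes), 0 lower in PCL than in saline (6.78%), and 2 higher in PCL than in UBM (10.6%). The genes furthest apart were mt-Nd3 and mt-Nd2, both subunits of the membrane arm of complex I. mt-Nd3 had 251 CPM in UBM (243 to 260), 602 CPM in PCL (588 to 617) and 864 CPM in saline (823 to 907), so UBM was at 0.291 times saline (0.274 to 0.309) and PCL at 0.697 times (0.660 to 0.736). mt-Nd2 had 705 CPM in UBM, 1110 CPM in PCL and 1495 CPM in saline. Both kept their direction within clusters, with UBM over saline at 0.410 in FP1 and 0.326 in RP3 for mt-Nd3, and at 0.685 and 0.543 in the same clusters for mt-Nd2. By contrast mt-Co1, the catalytic subunit of complex IV and the highest of the 13 in UBM, had 6540 CPM in UBM, 6422 CPM in PCL and 7445 CPM in saline.

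**Figure D3:**
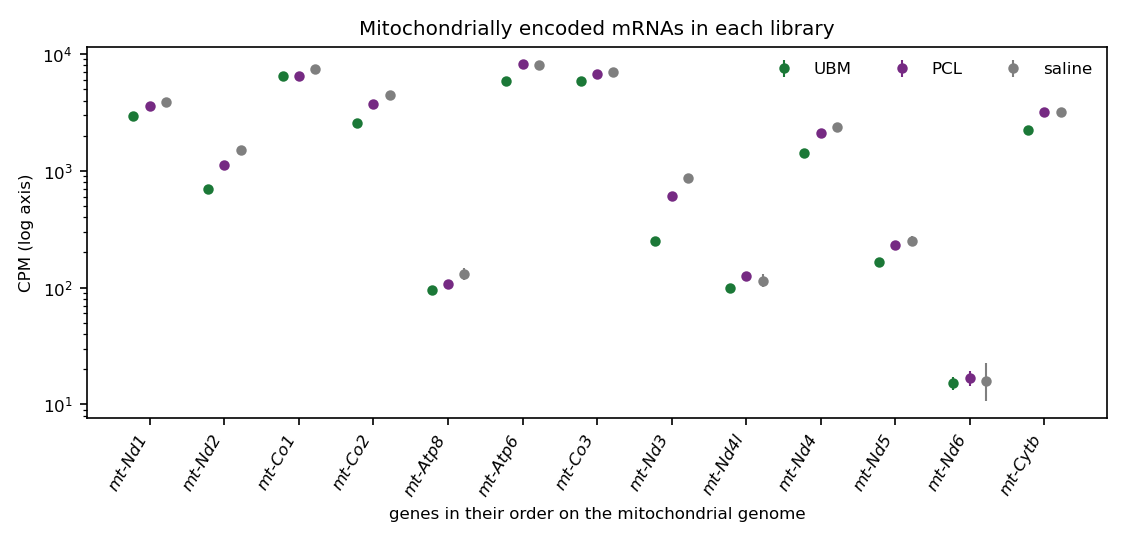
CPM of the 13 mitochondrially encoded genes on a log axis, in the order of the genes on the mitochondrial genome, with exact Poisson 95% intervals that are mostly smaller than the points; colours mark the libraries. The gap between UBM and saline is widest at mt-Nd3 (251 against 864 CPM) and narrow at mt-Co1 (6540 against 7445 CPM).

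The share of mt-Nd3 within the mitochondrial UMIs, which no scaling of the libraries can alter, differed in the same order and by less than its CPM. It was 0.875% in UBM (0.847% to 0.903%), 1.67% in PCL (1.63% to 1.71%) and 2.20% in saline (2.10% to 2.31%). In UBM the share lay between 0.691% (RP3) and 1.05% (FP1) in the 7 clusters with at least 50 cells, below every cluster of PCL (1.45% to 1.78%) and of saline (2.03% to 2.34%). Without cells over 10% mitochondrial UMIs the shares were 0.879% in UBM, 1.67% in PCL and 2.26% in saline. mt-Nd2 had the same order, at 2.45% in UBM, 3.07% in PCL and 3.81% in saline. The mt-Nd3 shares in the clusters of a library lay together and apart from those of the other libraries, and with 1 library per condition the treatment and the library cannot be told apart. Neighbouring reading frames overlap by 43 bases between mt-Atp8 and mt-Atp6, 7 between mt-Nd4l and mt-Nd4, and 14 between mt-Nd5 and mt-Nd6, which lie on opposite strands, so their counts can share reads. On GRCm38 mt-Nd3 spans chrM:9459-9806 and mt-Nd2 chrM:3914-4951, and neither overlaps another gene of the set.

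Between clusters the nuclear and mitochondrial shares were ordered differently. Pooled over libraries, the nuclear share was highest in R2 (3.14%) and lowest in F2 (1.83%), with 56 cells. The order in between depended on the library: FP1 was below R1 when pooled (2.54% against 2.74%) but above it within UBM (3.05% against 2.77%). It was also above R1 within saline (2.71% against 2.52%), where R1 had 46 cells, under the minimum of 50. Within UBM, RP1 and RP3 were level at 2.27%. The 6 neutrophil markers summed to 50130 CPM in F2, against at most 369 CPM in any other cluster, and their part in its low share was not tested. R2 was 1.72 times F2 (1.67 to 1.77), and 1.49 times RP3, all libraries pooled. The R2 cells came only from UBM, and 45 of the 56 F2 cells from PCL. Cluster and library cannot be told apart in the ratio to F2. Within UBM, the nuclear share was 3.14% in R2 and 2.27% in RP3. The pooled mitochondrial share was highest in RP3 (4.72%) and lowest in RP1 (2.27%). RP1 had 1.71% in UBM and 5.04% in the 37 PCL cells, against 31.0% in the 13 saline cells. Without cells over 10% mitochondrial UMIs, RP1 had 1.35% in UBM, against 2.72% over that library, and 3.41% in PCL, against 3.54%. In saline it then had 4.38%, against 3.25%, with 11 of the 13 cells left out. Over the 14 groups of a cluster and a library with at least 50 cells, the summed nuclear and mitochondrial levels had a correlation of -0.26, and over the 7 UBM groups of 0.25, a description of points that share libraries. The clusters are the authors' own and were drawn from these same cells, so differences between clusters are described and not tested.

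**Figure D4:**
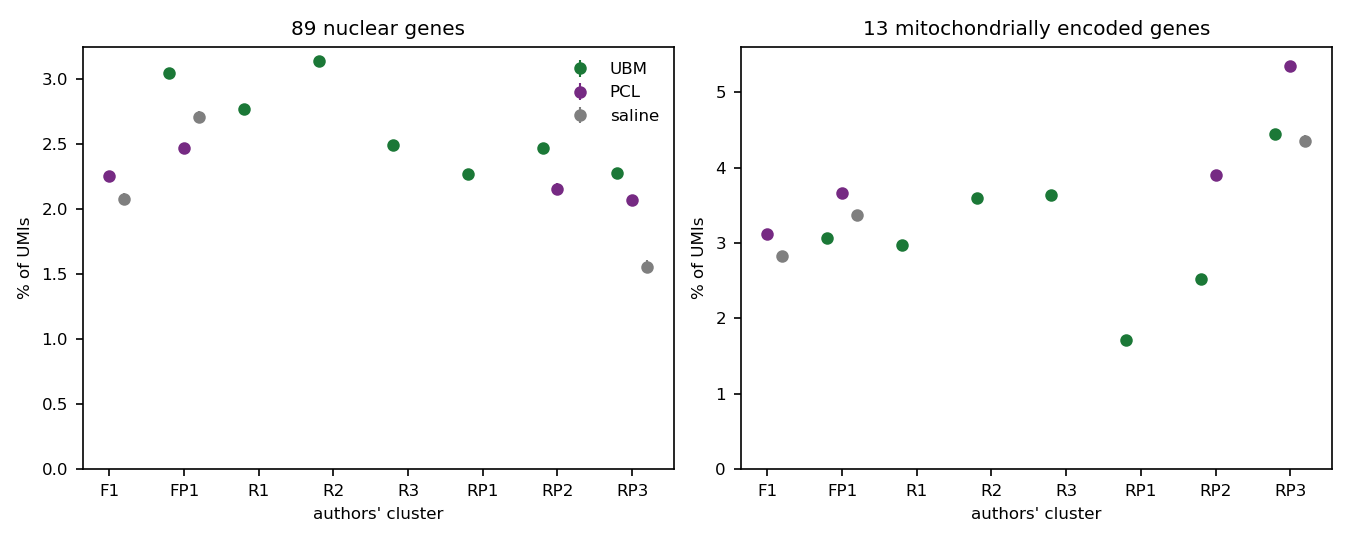
Share of all UMIs taken by the 89 nuclear genes (left) and the 13 mitochondrially encoded genes (right) in every cluster and library with at least 50 cells, with exact 95% intervals mostly smaller than the points. In UBM, R2 has the highest nuclear share (3.14%), RP1 the lowest mitochondrial share (1.71%) and RP3 the highest mitochondrial share (4.44%).

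RP1 of UBM, 574 cells, was low in both parts of the chain. The 13 mitochondrial genes took 1.71% of its UMIs, against 3.14% in the other UBM cells, a ratio of 0.544 (0.539 to 0.550), and the 89 nuclear genes 2.27%, against 2.68%. Per cell, the median mitochondrial share was 1.07%, and 272 of the 574 cells lay under 1%. Without the cells over 10%, the ratio was 0.448. At the 1.5-fold rule 10 of 13 mitochondrial genes and 15 of 81 nuclear genes that passed were lower than in the other UBM cells, against 9.33% of all genes, and 2 nuclear genes were higher, against 5.42%. The median log2 ratio was -0.80 over the mitochondrial and -0.29 over the nuclear genes, against -0.04 over all genes. The low mitochondrial share was not seen in the RP1 cells of the other libraries: the median cell had 3.73% in the 37 PCL cells, and the 13 saline cells are those described above. The nuclear share of the median RP1 cell was below that of the library there too, but this was not particular to RP1. The median RP1 cell had 1.94% nuclear UMIs in PCL, against 2.24% over the PCL library, 1.95% in RP3 and 1.82% in R3. In saline it had 0.932%, against 1.95% over the saline library, with 11 of the 13 cells over 10% mitochondrial UMIs. Among saline cells up to 10%, the median was 2.07% in RP1, against 1.99% over the library.

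All 4 genes of complex II and 31 of 36 nuclear genes of complex I had log2 ratios below 0 in RP1. So did 7 of 8 nuclear genes of complex III, 10 of the 14 of complex IV that passed, and 14 of 15 of complex V. The median over all genes that passed was itself below 0, at -0.04, and the share of all genes below 0 was not counted. Cox5a, a structural subunit of complex IV, had 230 CPM in RP1, against 534 CPM in the other UBM cells, a ratio of 0.430 (0.395 to 0.468). Atp5g1 stood at 0.50 (0.455 to 0.549), Ndufs8 at 0.515 (0.424 to 0.620), and Sdhb, the iron-sulphur subunit of complex II, at 0.518 (0.452 to 0.591). A few genes were higher: Ndufa4l2 with 23.2 CPM in RP1, against 6.13 CPM elsewhere in UBM (3.79-fold, 2.65 to 5.39), and Cox7a1 with 49.8 CPM, against 26.9 CPM. Cox7a2l, at 593 CPM against 406 CPM, and Ndufa6, at 462 CPM against 329 CPM, were 1.46-fold and 1.40-fold higher. Genes of the hypoxia list, which was chosen with earlier results of these data known, ran high in the same cells. At least 1.5-fold higher were 21 of 23 (5.42% of all genes). The summed share of the list was 1.46%, against 0.334% to 1.01% in the other UBM clusters with at least 50 cells. The summed share of cytosolic ribosomal protein genes was 24.6% in RP1 of UBM, against 14.1% to 21.0% in those clusters. The macrophage markers summed to 6513 CPM in RP1 of UBM, against 9664 to 36479 CPM in the other UBM groups, and their part in the result was not tested.

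**Figure D5:**
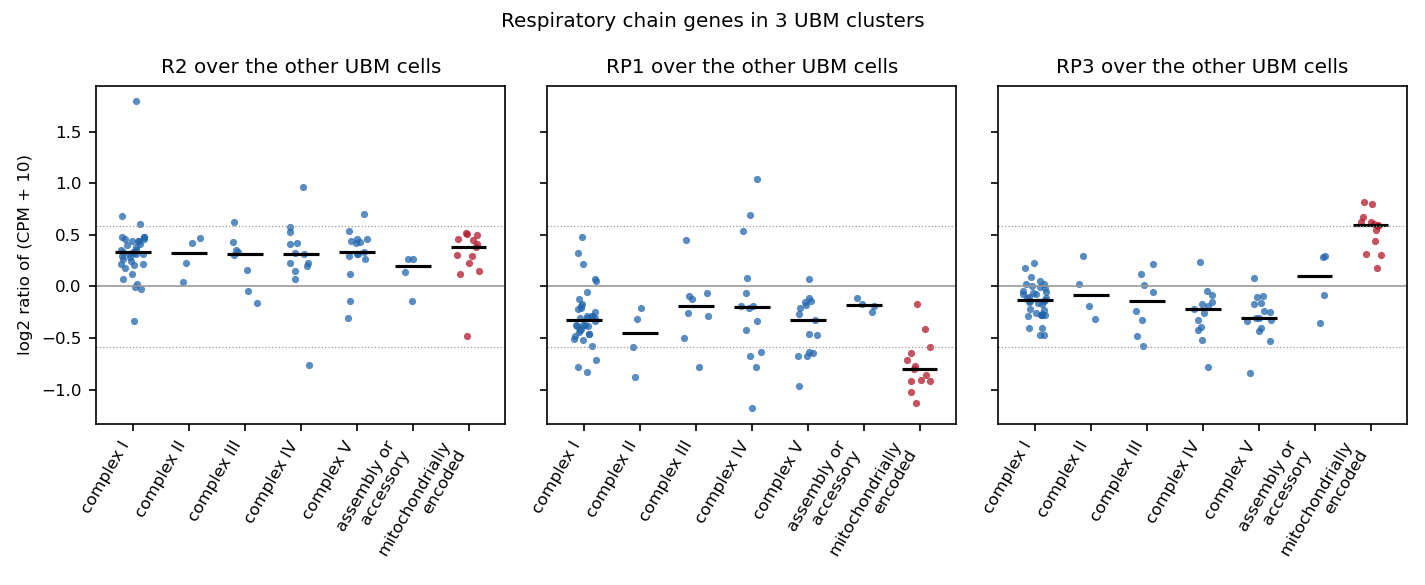
Log2 ratios, after adding 10 CPM, of each gene with at least 10 CPM in a cluster or in the other UBM cells, for R2, RP1 and RP3 of UBM; bars are medians, blue points are nuclear genes by complex, red points are mitochondrially encoded, and dotted lines mark 1.5-fold. The mitochondrial median is 0.38 in R2, -0.80 in RP1 and 0.60 in RP3, while the nuclear complex I genes lie mostly above 0 in R2 and below 0 in RP1.

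R2, 254 cells found only in UBM, was high in both parts. Its nuclear share was 3.14%, against 2.51% in the other UBM cells (1.25, 1.24 to 1.26), and its mitochondrial share 3.6%, against 2.75% (1.31, 1.30 to 1.32). Ndufa1 stood far above the rest, with 919 CPM in R2, against 258 CPM in the other UBM cells (3.56-fold, 3.36 to 3.77), in 229 of 254 cells, and no cell held more than 3.02% of its UMIs. Cox5a followed with 825 CPM, against 418 CPM, while Cox7a2l was lower, with 273 CPM, against 470 CPM. In all, 6 of 80 nuclear genes that passed were at least 1.5-fold higher (7.66% of all genes) and 1 was lower (8.36%).

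RP3 had a higher mitochondrial and a lower nuclear share than the other cells in UBM and in PCL. In saline its nuclear share was 1.56%, against 2.21% over the library. Its mitochondrial share of 4.35% stood below those of R3 (4.58%, 37 cells) and RP1 (31.0%, 13 cells), both under the minimum of 50 cells. Without cells over 10% mitochondrial UMIs, it was 4.32% in RP3 of saline, against 3.73% in R3 and 3.25% over the saline library. RP1 then had 4.38%, with 11 of its 13 cells left out. In UBM, 8 of 13 mitochondrial genes were at least 1.5-fold higher than in the other cells (8.31% of all genes) and 2 of 80 nuclear genes were lower (10.8%). In PCL, 7 of 13 mitochondrial genes were higher (14.7%) and 5 of 80 nuclear genes lower (11.9%). In saline 0 of 13 mitochondrial genes were higher (20.8%) than in the other saline cells, which include those of RP1. Of the nuclear genes in saline, 41 of 80 were lower (19.3%), led by Ndufa10 with 18.6 CPM in RP3, against 83.3 CPM in the other saline cells. RP3 of saline has 68 cells and 268609 UMIs in all, so this level of Ndufa10 rests on few UMIs. In PCL mt-Co1 had 11036 CPM in RP3, against 6166 CPM in the other PCL cells, and in UBM mt-Co1 had 10865 CPM in RP3, against 6231 CPM in the other cells. In RP3 of each library, Atp5g1 and Cox7b were among the nuclear genes with the lowest ratios to the other cells. FP1 was the reverse for nuclear genes in saline, where 17 of 82 were at least 1.5-fold higher than in the other saline cells (12.2%) and 2 lower (12.8%), Atp5g1 with 473 CPM against 236 CPM.

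In the remaining clusters few chain genes passed 1.5-fold against the other cells of the same library. In UBM, 4 of 83 nuclear genes were higher (9.06% of all genes) and 1 lower (6.64%) in FP1, led by Atp5g1 with 568 CPM, against 320 CPM. In R1 of UBM 0 of 81 were higher (5.35%) and 2 lower (6.71%), and in RP2 0 of 81 higher (1.37%) and 2 lower (4.09%), Ndufa1 in each case among the lower. R3 of UBM had 1 of 80 nuclear genes higher (7.05%), Sdhb with 254 CPM against 153 CPM, and 2 lower (7.25%). It also had 2 of 13 mitochondrial genes higher, mt-Nd4 and mt-Cytb. The 9 muscle fibre markers summed to 373 CPM there, against at most 101 CPM in the other UBM groups with at least 50 cells. Their part in the R3 values was not tested. Cox7a1 was among the lower genes in FP1, R1 and R3 of UBM, at 13.8 to 18.6 CPM. In PCL 0 of 80 nuclear genes were higher (5.45%) or lower (5.84%) in F1, 0 of 80 higher (4.13%) or lower (6.79%) in FP1, and in RP2 0 of 81 were higher (4.67%) and 2 lower (12.9%), Ndufa9 and Ndufs4. F1 of saline had 0 of 81 nuclear genes higher (8.34%), 4 lower (14.3%), and 6 of 13 mitochondrial genes lower, mt-Co1 with 5225 CPM in F1, against 7952 CPM in the other saline cells. These calls use no test, and those of saline rest on 64 cells in F1. The other saline cells include the 13 of RP1, with 31.0% mitochondrial UMIs. Without cells over 10% mitochondrial UMIs, the mitochondrial share was 2.79% in F1 of saline, against 3.25% over the saline library.

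Other mitochondrial genes, from lists chosen with earlier results of these data known, varied in direction. In UBM against saline the 77 mitochondrial ribosomal protein genes had a summed ratio of 1.12, and 1 of the 72 that passed was 1.5-fold higher (5.36% of all genes) and 0 lower (10.2%). The citric acid cycle and pyruvate dehydrogenase list had a ratio of 0.931 (1.03 under the other scaling), with 0 of 19 higher and 1 lower, Idh3g, a subunit of isocitrate dehydrogenase, at 40.2 CPM in UBM against 69.4 CPM in saline. Assembly factors outside the name rule stood at 1.13 in UBM and 1.25 in PCL relative to saline, led in both by Cox16, a complex IV assembly factor, with 27.6 CPM in UBM, 28.1 CPM in PCL and 11.7 CPM in saline. Genes of mitochondrial DNA upkeep and transcription had a ratio to saline of 0.903 for UBM and 1.13 for PCL. Genes of cytochrome c and ubiquinone stood at 0.959 for UBM (1.06 under the other scaling) and 1.21 for PCL, with cytochrome c itself, Cycs, at 312 CPM in PCL against 202 CPM in saline. In the carrier list, at 0.976 for UBM (1.08 under the other scaling) and 1.07 for PCL, Ucp2, a carrier of the uncoupling protein family, had 385 CPM in UBM against 677 CPM in saline, and Chchd10, a protein of the space between the membranes, 93.0 CPM in UBM against 23.8 CPM in saline. The hypoxia list was the widest apart, with 21 of 23 genes 1.5-fold higher in UBM (5.36% of all genes) and 19 of 22 in PCL (6.73%) than in saline, Pgk1, a glycolytic enzyme, at 155 CPM in UBM, 116 CPM in PCL and 10.1 CPM in saline.

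Among 2363 other genes with at least 50 CPM, the one whose log2 level over the 14 groups was most like the summed nuclear genes was Lsm4, with a correlation of 0.95, followed by Gtf2h5, Mrps36, Lamtor2 and Timm13, all above 0.92. For the mitochondrial sum, added after the values were seen, the most alike was Cd302, at 0.84, then Ogdh, Leprot, Grn and Aldh2. The 14 points share 3 libraries and their depths, so these figures describe likeness in these groups.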

How the data were processed

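Macrophages sorted from injured mouse quadriceps were measured by droplet 3′ RNA sequencing in 3 libraries, 1 per condition. The authors deposited a table of whole-number UMI counts per gene and cell, and a table that gives each cell its cluster and condition. Cell Ranger and Seurat 2 are named in the submitters' processing notes, which list the human build hg38, although the deposited symbols are those of mouse genes. The authors' filters on cells and genes, their treatment of doublets and of shared or overlapping reads, and whether counting used strand are not stated by any label or header. No doublet was removed here, and every column of cells was used.

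Counts were summed per library, cluster and gene and divided by all UMIs of the group. Library totals ran from 1888343 to 14586276 UMIs. Intervals are exact Poisson (levels), exact Clopper-Pearson (shares) and exact conditional binomial (ratios), at 95%, and cover counting error only. A gene was described as higher or lower at 1.5-fold after adding 10 CPM to both sides, if either side had 10 CPM, and groups of a cluster and a library needed 50 cells. For a gene with no UMI in a library, 3 counts served as its floor there. By rule, any member could be named, with full values for the 5 nuclear members of at least 50 CPM with the highest and the lowest log2 ratio in each pair, the most abundant of each complex, the mitochondrial genes and the isoform pairs, and the highest and lowest 2 genes of a list and the 5 genes most like the nuclear sum could be named. Genes described in single clusters were chosen after their values were seen. The members and lists were chosen with earlier results of these data known. Paralogues such as Atp5g1, Atp5g2 and Atp5g3, and genes with processed pseudogenes, can share reads. Scaling by the trimmed mean of M values used edgeR 4.0.16 in R 4.3.3, for scaling factors only; other steps used Python 3.11.15, numpy 2.4.6, pandas 2.3.3 and scipy 1.17.1. The calculations were tested on simulated data. Alternatives covered the scaling, the total, the minimum level, the added value, the threshold, cells rich in mitochondrial UMIs and clusters left out.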

Additional observations from a re-analysis of the deposited data

Results flagged for a closer look

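Ratios to saline that lay on opposite sides of 1 in different clusters are given here, with 1 library per condition, so the difference between clusters was not tested. For UBM over saline, the mitochondrial sum was 1.02 in RP3 and 0.911 in FP1. For PCL over saline, the nuclear sum was 1.09 in F1 and 1.33 in RP3, against 0.911 in FP1. Complex I followed with 1.09 in F1 and 1.34 in RP3, against 0.912 in FP1, and complex V with 1.12 in F1 and 1.35 in RP3, against 0.907 in FP1. Complex II stood at 1.29 in RP3 and 0.819 in FP1, and complex IV at 1.33 in RP3 and 0.898 in FP1.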

How the results depend on the processing

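Each summed ratio was recomputed under other settings, and the cause of the moves was not tested. In the order nuclear UBM over saline, mitochondrial UBM over saline, nuclear PCL over saline, mitochondrial PCL over saline, nuclear PCL over UBM and mitochondrial PCL over UBM, the ratios were 1.30, 0.806, 1.08, 0.937, 0.836 and 1.16 with scaling by the trimmed mean of M values, and 1.24, 0.769, 1.02, 0.884, 0.827 and 1.15 with a total that leaves out ribosomal protein genes and Malat1. With a total without mitochondrially encoded genes, the nuclear ratio was 1.16 for UBM over saline and 0.912 for PCL over UBM. Without cells over 10% mitochondrial UMIs, the nuclear ratios to saline were 1.16 for UBM and 1.05 for PCL, and the mitochondrial ratios were 0.835 for UBM over saline, 1.09 for PCL over saline, which reversed, and 1.30 for PCL over UBM. Without clusters F2 and R3, the mitochondrial ratios of PCL were 0.949 to saline and 1.30 to UBM. Without cluster RP1, a setting chosen after seeing the data, the UBM ratios to saline were 1.20 nuclear and 0.901 mitochondrial, the mitochondrial ratio of PCL to saline reversed to 1.03, and PCL over UBM was 0.882 nuclear and 1.14 mitochondrial. With clusters weighted equally, UBM over saline was 1.25 nuclear and 0.973 mitochondrial, the mitochondrial ratio of PCL to saline reversed to 1.15, and PCL over UBM was 0.858 nuclear and 1.29 mitochondrial.

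The ratio of the highest to the lowest cluster for nuclear genes was 1.79 with the trimmed mean scaling, 1.81 without ribosomal protein genes and Malat1, and 1.49 without F2 and R3, where the lowest was RP3. This ratio was not run within a library, since no library had 50 cells in both R2 and F2. The count of nuclear genes higher in UBM than in saline was 8 with the trimmed mean scaling, 7 without F2 and R3, and 0 at 2-fold, and the count lower was 1 with no minimum level. For PCL over saline, the count higher was 1 with no minimum and 1 without F2 and R3, and the count lower was 2 with no minimum, 0 without F2 and R3, and 0 at 2-fold. For PCL over UBM, the count lower was 1 at 2-fold. No paired analysis was possible because each condition is 1 library. The saline library, with 341 cells, sets the width of most intervals.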

Other observations

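Cox6a2, the muscle isoform left out of the set, had 29.1 CPM in UBM, 3.36 CPM in PCL and 13.8 CPM in saline. In UBM 59.2% of its UMIs lay in RP1, in 145 of 574 cells (25.3%), at 93.9 CPM, most of the 101 CPM that the muscle fibre markers summed to there, while Myl1, Tnnc2 and Myh4 were at 0. In saline R3 held 69.1 CPM, from 17 UMIs in 37 cells.

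The genes whose levels over the 14 groups ran most opposite to the summed nuclear chain genes were Casp4, at a correlation of -0.92, Map3k1, Clk1, Ppp3ca and Pnrc1. Those most opposite to the mitochondrial sum were ribosomal protein genes, Rpl9 at -0.92, Rps15a, Rpl39, Rpl21 and Rps7. These genes were named after their values were seen, and the values are descriptions over points that share 3 libraries and their depths.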
